A study of Mus musculus with 4 samples.

Results

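The cells described here were the mouse embryonic stem cells whose droplets gave very high counts of unique molecular identifiers (UMIs, tags that count captured mRNA molecules once each), called high-UMI cells. They were chosen by their own UMI count, as kept cells with more than 2 times the median UMI count of the kept cells of their library, and no marker gene entered the choice. Of 31989 kept cells in 4 single-cell libraries, 1615 passed this limit, a share of 5.05% (95% binomial interval 4.81 to 5.29, Clopper-Pearson), and they held 11.0% of the UMIs of all kept cells. The interval pools the cells of all libraries and does not cover the spread between libraries, whose single shares, given below, all lie outside it. In every library they were compared with reference cells, the kept cells between 0.8 and 1.2 times the median, of which there were 15604. All levels are shares of the UMIs of a class, summed over its cells and given as CPM, the UMIs of a gene per 1000000 UMIs of the class, so that the larger total of a high-UMI cell cancels. The kit tags each polyadenylated transcript near its tail, so a level does not grow with the length of the transcript.

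A cell gains mRNA as it grows towards division, and the UMI count of a droplet depends on the mRNA of the cell, on how much of it is captured and on how many cells the droplet holds, which the count alone cannot tell apart. Embryonic stem cells divide fast and have a short G1 phase, replicate their DNA in S phase, when histone genes are expressed, and condense and separate chromosomes in G2 and mitosis. In culture they move between a naive pluripotent state and a formative state that prepares differentiation. Some of the cells that leave pluripotency, but not all, take up epithelial keratins and actin-binding contractile proteins.

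The libraries came from E14tg2a.4 wild-type (WT) cells, a male mouse line, and from the Srrm2 hKO line, a heterozygous gene-trap truncation of Srrm2 in the same parental line, with 2 cultures of each. The hKO cells are 1 gene-trap clone, so its clone and its genotype cannot be told apart, and both lines were kept with LIF, the labels naming 24 or 72 hours of serum-free medium before collection and the study's methods another time under regular conditions. Srrm2 encodes a large scaffold protein of nuclear speckles. The deposited matrix tells the 4 libraries apart only by a number, which no label ties to a line, so no WT to hKO comparison was made, the libraries were never averaged as replicates, and no p-value is given. Every interval covers counting error only, so whether intervals overlap is a description within a library and not a test. The libraries held 7464 to 8514 kept cells and 166839268 to 200180473 UMIs in these cells, and 257 of the kept cells carried a barcode that also occurred in another library, 14 of them high-UMI cells.

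High-UMI cells were found in every library, but not at the same share. They numbered 449, 295, 530 and 341 in libraries 1 to 4, or 5.53, 3.46, 6.71 and 4.57% of the kept cells, against 3905, 4446, 3567 and 3686 reference cells. Their median UMI counts were 42132, 49762, 46049 and 49411, against 17826, 21404, 18835 and 20972 in reference cells, and the single highest count was 91238, or 4.96 times its library median. The median number of genes detected was 6026, 6574, 6350.5 and 6635 in high-UMI and 3999, 4548, 4140 and 4510 in reference cells. These totals follow from the way the cells were selected and are given as a description. When 14000 UMIs were drawn from every cell, which all cells of both classes allowed, the medians were 3559, 3702, 3648 and 3682 against 3515, 3670, 3545 and 3667 genes, so that at equal depth the classes lay within 3% of each other.

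The limit did not fall in a gap of the distribution. It separated 322 cells at 2 to 2.1 times the median from 386 cells at 1.9 to 2 times. Just inside the limit the genes of the G2/M list made up 6610.4, 6693, 6139 and 5562 CPM in libraries 1 to 4, and just outside it 6303, 6459.5, 5644 and 5466. The simple epithelial keratins made up 94.1, 33.3, 754 and 162 inside and 53.2, 80.0, 1026 and 303 outside, and the naive pluripotency genes 1829, 1676, 1107 and 925 inside and 1832, 1402, 1200.4 and 974 outside. Only 125 cells exceeded 3 times the median, 23, 11, 45 and 46 of them in libraries 1 to 4.

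In composition, high-UMI cells were close to reference cells of the same library. A gene was tested when each library gave 500 or more counts of it in the 2 classes together, which 8247 genes met. A gene could thus reach this minimum through the class where its share was higher. In libraries 1 to 4, 93.0, 96.8, 78.9 and 92.9% of these genes lay less than 25% above and less than 20% below their reference share, so library 3 showed the widest differences and library 2 the narrowest. Genes passed the rule used below when they were at least 25% higher in every library, which held for 29, or 0.352% of those tested, or at least 20% lower in every library, which held for 24, or 0.291%. At shares this low, a short list with no member past the rule is not set apart from all genes by that. Genes on the same side of 1 in every library, whatever the size, were more common, with 1772 above (21.5%) and 2011 below (24.4%). By the smallest difference over the libraries, Tagln, Krt8 and Zyx led the higher genes, and Gm42418, AY036118 and Hist1h4d the lower ones. The plot of the named genes shows that library 2 had the smallest differences for most of the higher genes.

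**Figure D1:**
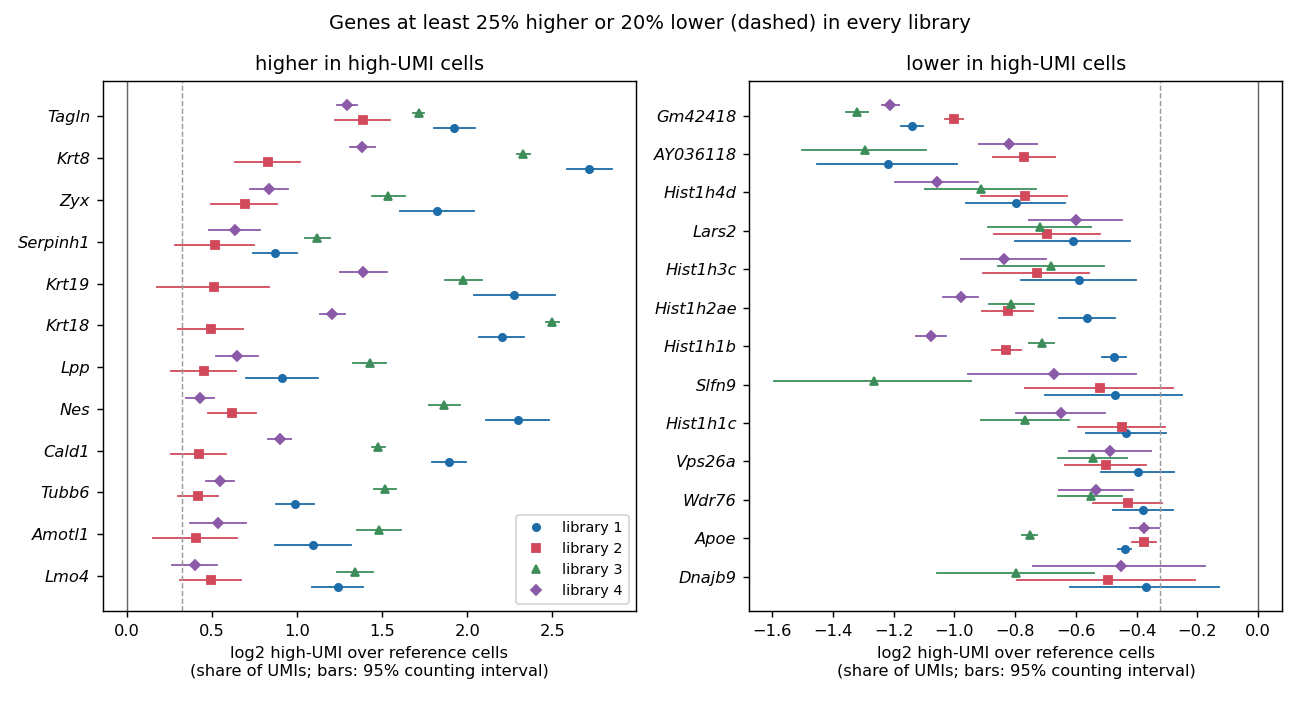
The x axis gives the log2 of the share of UMIs in high-UMI over reference cells for 12 genes higher (left) and for Gm42418 with the 12 other genes lower (right) in every library, with the 4 libraries as points, 95% counting intervals as bars and the limits of 25% higher and 20% lower dashed. Krt8 ranged from 0.83 in library 2 to 2.72 in library 1, while Gm42418 stayed between -1.32 and -1.001.

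Tagln and Zyx, which encode proteins of the actin cytoskeleton, were among the leading higher genes. Tagln, the actin-binding protein transgelin, was at 57.5, 29.0, 626 and 211 CPM in the high-UMI cells of libraries 1 to 4 and at 15.1, 11.1, 191 and 85.9 in reference cells. Its log2 differences were 1.92 (1.80 to 2.05), 1.39 (1.22 to 1.55), 1.72 (1.68 to 1.75) and 1.29 (1.24 to 1.35), and the smallest of them exceeded that of every other higher gene. Zyx, the focal adhesion protein zyxin, was at 17.9, 18.2, 70.7 and 50.04 against 5.05, 11.3, 24.4 and 28.1, with log2 differences of 1.82, 0.69, 1.54 and 0.83. Its relative Lpp differed by 0.45 to 1.43 on the log2 scale, and Cald1, the actin-binding caldesmon, by 0.42 to 1.89. For Lpp and Cald1 the smallest difference was again that of library 2.

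The contractile list of 12 genes behaved alike as a whole. It held 541, 548, 2331 and 1193 CPM in high-UMI cells and 327, 459, 999 and 810.5 in reference cells, folds of 1.65 (1.61 to 1.69), 1.19 (1.17 to 1.22), 2.33 (2.31 to 2.36) and 1.47 (1.45 to 1.496). Of the 6 members with enough counts, 5 were above 1 in every library, against 21.5% of all genes, and 2, Tagln and Cnn2, passed the rule, against 0.352% of all genes. Tpm1, a tropomyosin that covers actin filaments, was at 235, 179, 795 and 396 against 123, 153, 322 and 267 and missed the rule in library 2 alone, where its log2 difference was 0.22. Flna, the filament cross-linker filamin, differed by 0.23 to 0.62. Among 11 cytoplasmic actins and partners, with list folds of 1.13, 1.07, 1.36 and 1.18, 9 were above 1 in every library and Actg1, the cytoplasmic gamma-actin, passed the rule at 1082, 911, 2727 and 1904 against 698, 698, 1437 and 1423. Actb, the beta-actin, was less displaced, with log2 differences of 0.13, 0.02, 0.34 and 0.14.

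Contractile and actin genes are classic targets of serum response factor, which binds the CArG box, so the promoters of the genes past the rule were read for that motif on both strands. RefSeq promoter windows of 300 bases (GRCm38.p6, from upstream of the gene start to shortly after it) were found for 21 of the 29 higher and 15 of the 24 lower genes. A CArG box stood in the windows of 2 higher genes, Actg1 and Cnn2, and of 0 lower genes, while 488 of 27025 genes with a window (1.81%) held a box. Tagln was among the genes with no window. Both boxes are shown, in capitals, with 20 bases on each side, from chr11:120348556-120348605 on the minus strand for Actg1 and chr10:79988524-79988573 on the plus strand for Cnn2, starting at -90 and -56 relative to the gene start of RefSeq, which differs from that of GENCODE.
Actg1: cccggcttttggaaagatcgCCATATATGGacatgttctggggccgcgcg
Cnn2: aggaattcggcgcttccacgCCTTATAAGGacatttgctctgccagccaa
The letters GGAATG or their reverse complement, the core bound by TEAD factors, stood in the windows of 6 of the 21 higher genes, 2 of the 15 lower genes and 16.6% of all genes with a window. The members with a box or core are too few to be set apart from the rest, and a match describes letters and not binding.

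Simple epithelial keratins showed the largest list fold and the largest spread between libraries. Krt8 was at 68.6, 19.2, 605 and 139 CPM in high-UMI and 10.4, 10.8, 120.4 and 53.4 in reference cells, and Krt18, its filament partner, at 53.6, 17.8, 627 and 127 against 11.6, 12.7, 111 and 55.0. Krt19 differed by 2.28, 0.51, 1.98 and 1.39 on the log2 scale. All 3 keratins with enough counts passed the rule, against 0.352% of all genes, and the list folds were 4.97 (4.70 to 5.27), 1.53 (1.403 to 1.66), 5.24 (5.15 to 5.34) and 2.45 (2.37 to 2.53). Krt19 met the count minimum in library 1 with 348 counts in high-UMI and 256 in reference cells. At its reference share in both classes it would not have been tested. The list was also chosen with earlier results of these data known, so the count of members past the rule is a description and no independent support. In library 2 both classes stayed at or under 44.7 CPM, and in library 3 the high-UMI cells reached 1320.4. The median fold over the libraries was 3.71, and it was 1.78 without the keratin-high cells defined next and 2.45 without library 1 or without library 3.

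Keratin counts were uneven over cells. After 14000 UMIs were drawn per cell, keratin-high cells, with at least 5 UMIs of Krt8 and Krt18 together, numbered 22, 2, 171 and 41 of the high-UMI cells of libraries 1 to 4, or 4.90% (3.10 to 7.32), 0.678% (0.0822 to 2.43), 32.3% (28.3 to 36.4) and 12.02% (8.77 to 15.96). Among reference cells the shares were 0.589% (0.374 to 0.882), 0.450% (0.275 to 0.694), 5.72% (4.98 to 6.53) and 3.96% (3.35 to 4.64). In library 2 the intervals of both classes overlapped, and in the other 3 libraries they did not. Without keratin-high cells in either class, Tagln still differed by 2.89, 1.68, 2.14 and 1.2 and Krt8 by 1.62, 0.43, 1.29 and 0.75 on the log2 scale. Of the 29 higher genes, 12 then passed the rule, 4 had too few counts left for it (Tagln, Zyx, Krt8 and Plekhg2), and 13 fell short of 25% in at least 1 library.

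**Figure D2:**
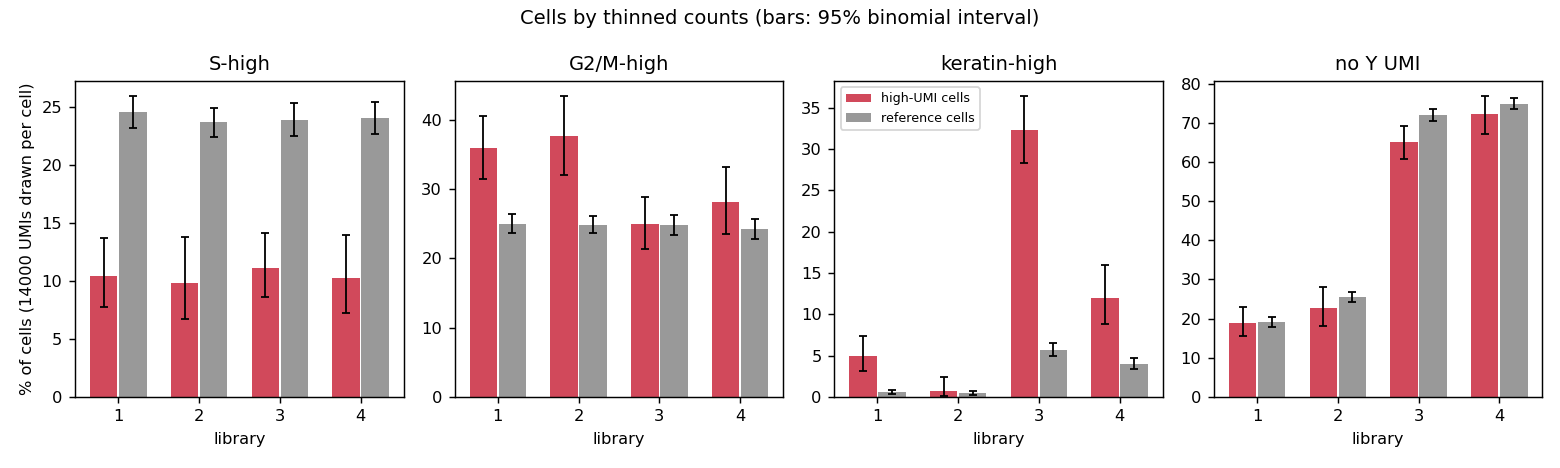
Bars give the share of cells, in percent, in high-UMI (red) and reference cells (grey) of each library after 14000 UMIs were drawn from every cell, with 95% binomial intervals, where S-high and G2/M-high cells are those above the 75th percentile of the reference cells of their library. The S-high share of high-UMI cells was 9.83 to 11.1% in every library, and the keratin-high share ran from 0.678% in library 2 to 32.3% in library 3.

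Further higher genes had diverse roles. Nes, the intermediate filament protein nestin, was at 29.3, 33.99, 87.4 and 85.6 against 5.96, 22.1, 24.0 and 63.5 CPM, with log2 differences of 2.30, 0.62, 1.87 and 0.43. Libraries 1 and 3 stood apart from libraries 2 and 4 for this gene. Tubb6, a beta-tubulin, differed by 0.42 to 1.52, and Serpinh1, a chaperone of collagen in the endoplasmic reticulum, by 0.52 to 1.12. Amotl1, an angiomotin-like protein of cell junctions, differed by 0.40 to 1.48, and Lmo4, a LIM-domain transcriptional cofactor, by 0.40 to 1.34. The remaining higher genes included Plec, the cytoskeletal linker plectin, the secreted protein Ccn2, the claudin Cldn7 and the phosphatase Dusp9, and these 4 lie below the 12 leading genes.

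Naive and core pluripotency genes took a smaller summed share of UMIs in high-UMI cells of every library, although no single member passed the rule. Of 10 naive pluripotency genes, 8 had enough counts, 6 of them were below 1 in every library, against 24.4% of all genes, and 0 passed the rule. Their summed share was 1702, 1520.3, 1031 and 855 CPM in high-UMI and 1977, 1599, 1546 and 953 in reference cells, folds of 0.861 (0.851 to 0.872), 0.950 (0.937 to 0.964), 0.667 (0.658 to 0.676) and 0.896 (0.881 to 0.912). Counted per cell at 14000 UMIs, the libraries split. Cells with naive counts at or above the reference median made up 41.2% (36.6 to 45.9), 50.8% (45.0 to 56.7), 24.5% (20.9 to 28.4) and 53.1% (47.6 to 58.5) of high-UMI cells, against 54.0, 54.5, 50.7 and 50.8% of reference cells, and the median naive count was 25, 23, 13 and 10 against 27, 23, 23 and 10. The intervals lay below the reference share in libraries 1 and 3 and held it in libraries 2 and 4. Nanog was at 118, 112, 64.5 and 48.7 against 160.2, 133, 115 and 64.4, with log2 differences of -0.45, -0.25, -0.83 and -0.40, and missed the rule in library 2 alone. Esrrb, Klf4 and Zfp42, further naive factors, differed by -0.85 to -0.11, -0.75 to -0.28 and -0.77 to -0.05, each most in library 3, while Klf5 lay between -0.01 and 0.16. The core list had folds of 0.900, 0.949, 0.719 and 0.933, with 0 of 7 members past the rule, 3 below 1 in every library and 1 above, against 24.4 and 21.5% of all genes. Among the core factors, Pou5f1 was at 799, 801, 589.6 and 783 against 849.8, 795, 692 and 772, and Sox2 differed by -0.63 to -0.12. The naive share thus differed least in library 2 and most in library 3. Without keratin-high cells in either class, the naive folds of the libraries ran from 0.790 to 0.953, against 0.667 to 0.950 with them. Whether keratin-high cells take part in the naive difference was not tested.

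Formative genes were higher in some libraries only. Their summed share was 362, 947, 620.2 and 1288 CPM in high-UMI and 242, 846, 414 and 1294 in reference cells, folds of 1.49 (1.45 to 1.54), 1.12 (1.1 to 1.14), 1.498 (1.47 to 1.53) and 0.995 (0.981 to 1.01). Of 9 members with enough counts, 3 were above 1 in every library, against 21.5% of all genes. Pou3f1, a formative transcription factor, was the 1 member that passed the rule, against 0.352% of all genes, at 44.1, 94.5, 131 and 201 against 10.9, 73.1, 37.4 and 158, and its log2 differences of 2.02, 0.37, 1.81 and 0.34 were large in libraries 1 and 3, where its reference level was lowest. Pou3f1 differed by 1.67, 0.38, 1.39 and 0.30 without keratin-high cells and then fell short of the rule in library 4. Sox11 and Sox4 differed by 1.22, 0.32, 1.15 and 0.15 and by 0.73, 0.13, 0.88 and 0.19. Otx2, a regulator of the exit from the naive state, differed by -0.10 to 0.11, and Dnmt3b, a de novo DNA methyltransferase, by 0.66, 0.18, 0.42 and -0.10. Libraries 1 and 3 had the low formative levels in reference cells, and there the list fold was 1.49 and 1.498.

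In libraries 1 to 3, few cells with high keratin counts held naive transcripts at the reference level. Of keratin-high cells, 0, 0, 2 and 11 of the high-UMI class and 0, 0, 0 and 7 of the reference class had naive counts at or above the reference median of libraries 1 to 4. That median was 27, 23, 23 and 10 UMIs, so the cut was lowest in library 4. The median naive count of keratin-high cells was 7, 5, 6 and 7 in the high-UMI class and 4, 4, 3 and 4 in the reference class. In library 2 the high-UMI class held only 2 such cells. In library 4 the cells at or above the cut were 26.8% (14.2 to 42.9) of 41 keratin-high cells with high UMI counts. They were 4.79% (1.95 to 9.63) of 146 in reference cells, and the intervals did not overlap. In library 3 they were 1.17% (0.142 to 4.16) of 171 against 0 of 204, where the exact interval reaches 1.79% and 3 counts would be 1.47%. The level of free RNA in the droplets was not measured. Droplets with more than 1 cell were not removed, no caller of doublets was run, and whether such droplets take part in this or any other difference was not tested.

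The cell cycle genes split by phase. G2/M genes, which act in chromosome condensation and division, made up 6380.2, 6251, 5548 and 5532 CPM in high-UMI and 5539.9, 5799, 5428 and 5353 in reference cells, folds of 1.15 (1.14 to 1.16), 1.08 (1.07 to 1.09), 1.02 (1.02 to 1.03) and 1.03 (1.03 to 1.04). Of 30 members, 13 were above 1 in every library and 3 below, against 21.5 and 24.4% of all genes, and 0 passed the rule. Ube2c, which directs the destruction of mitotic proteins, was at 778, 712, 645 and 569 against 586, 555, 574 and 438, and Cenpf, a kinetochore protein, and Plk1, a mitotic kinase, differed by 0.16 to 0.48 and 0.26 to 0.45 on the log2 scale. Ccnb1, the mitotic cyclin, and Cdc20, an activator of anaphase, lay between -0.16 and 0.04 and between -0.25 and 0.05. The list therefore did not move as a block, and its fold was 1.02 in library 3 and 1.03 in library 4. The median fold over the libraries, 1.06, turned to 0.985 with the limit at 2.5 times the median.

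S phase genes took a slightly smaller summed share. They made up 3104, 3519, 2930.4 and 3406 CPM in high-UMI and 3329, 3819, 3248 and 3737 in reference cells, folds of 0.932 (0.924 to 0.940), 0.921 (0.913 to 0.930), 0.902 (0.895 to 0.910) and 0.911 (0.903 to 0.919). Of 25 members, 17 were below 1 in every library and 2 above, against 24.4 and 21.5% of all genes. Against 0.291% of all genes, 1 passed the rule downwards, Mcm6, a subunit of the replicative helicase, at 137, 151, 118 and 127 against 177, 191, 154 and 173. Slbp, which binds histone mRNA, differed by -0.23, -0.46, -0.17 and -0.41 on the log2 scale. The list of D-type cyclins and Cdk inhibitors, which also holds Cdk4, Cdk6, Rb1 and E2f1, had folds of 1.01, 1.04, 0.997 and 1.04. Of its 10 members with enough counts, 0 passed the rule.

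Counted per cell at equal depth, few high-UMI cells were rich in S phase transcripts. Cells above the 75th percentile of reference cells for the S phase list were 10.5% (7.79 to 13.7), 9.83% (6.68 to 13.8), 11.1% (8.58 to 14.1) and 10.3% (7.25 to 14.0) of high-UMI cells in libraries 1 to 4, against 24.6, 23.7, 23.9 and 24.1% of reference cells. For the G2/M list the shares were 35.9% (31.4 to 40.5), 37.6% (32.1 to 43.4), 24.9% (21.3 to 28.8) and 28.2% (23.4 to 33.2), against 24.97, 24.9, 24.8 and 24.2%. The intervals of the classes did not overlap for the S phase list in any library, nor for the G2/M list in libraries 1 and 2, and overlapped for the G2/M list in libraries 3 and 4. In high-UMI cells the spread was narrower, with variance over mean of the G2/M count of 9.27, 4.66, 8.60 and 4.96 against 17.1, 7.12, 14.7 and 6.74, and of the S phase count 2.08, 2.04, 3.11 and 2.25 against 3.11, 3.41, 4.14 and 3.81. The median G2/M count was 89, 86, 76 and 76 against 66, 76, 69 and 71, while the 90th percentile was 124, 116, 112 and 104 against 129, 114, 120 and 104. The median was thus higher in each library, and the 90th percentile lay below the reference in libraries 1 and 3 and at or just above it in libraries 2 and 4.

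The G2/M share was highest at moderately raised UMI counts. In cells at 1.2 to 1.6 times the median it was 7255, 7169, 6619 and 6644 CPM, above 5539.9, 5799, 5428 and 5353 in reference cells. At 1.6 to 2 times it was 6228, 6419, 5950.2 and 5893, at 2 to 2.5 times 6500.2, 6519.6, 5679 and 5719.8 and above 3 times 6588, 5122, 5348 and 5079. High-UMI cells thus lay below the cells at 1.2 to 1.6 times in every library, but in libraries 1 and 2 those at 2 to 2.5 times lay above the cells at 1.6 to 2 times. Keratins went the other way in libraries 1, 3 and 4, with 41.0, 33.0, 496 and 179.9 at 1.2 to 1.6 times and 293, 36.1, 2204 and 378 above 3 times. Naive genes were at 1424, 1484, 911 and 825 above 3 times, below 1977, 1599, 1546 and 953 in reference cells. The bins above 3 times rest on 11 to 46 cells each.

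**Figure D3:**
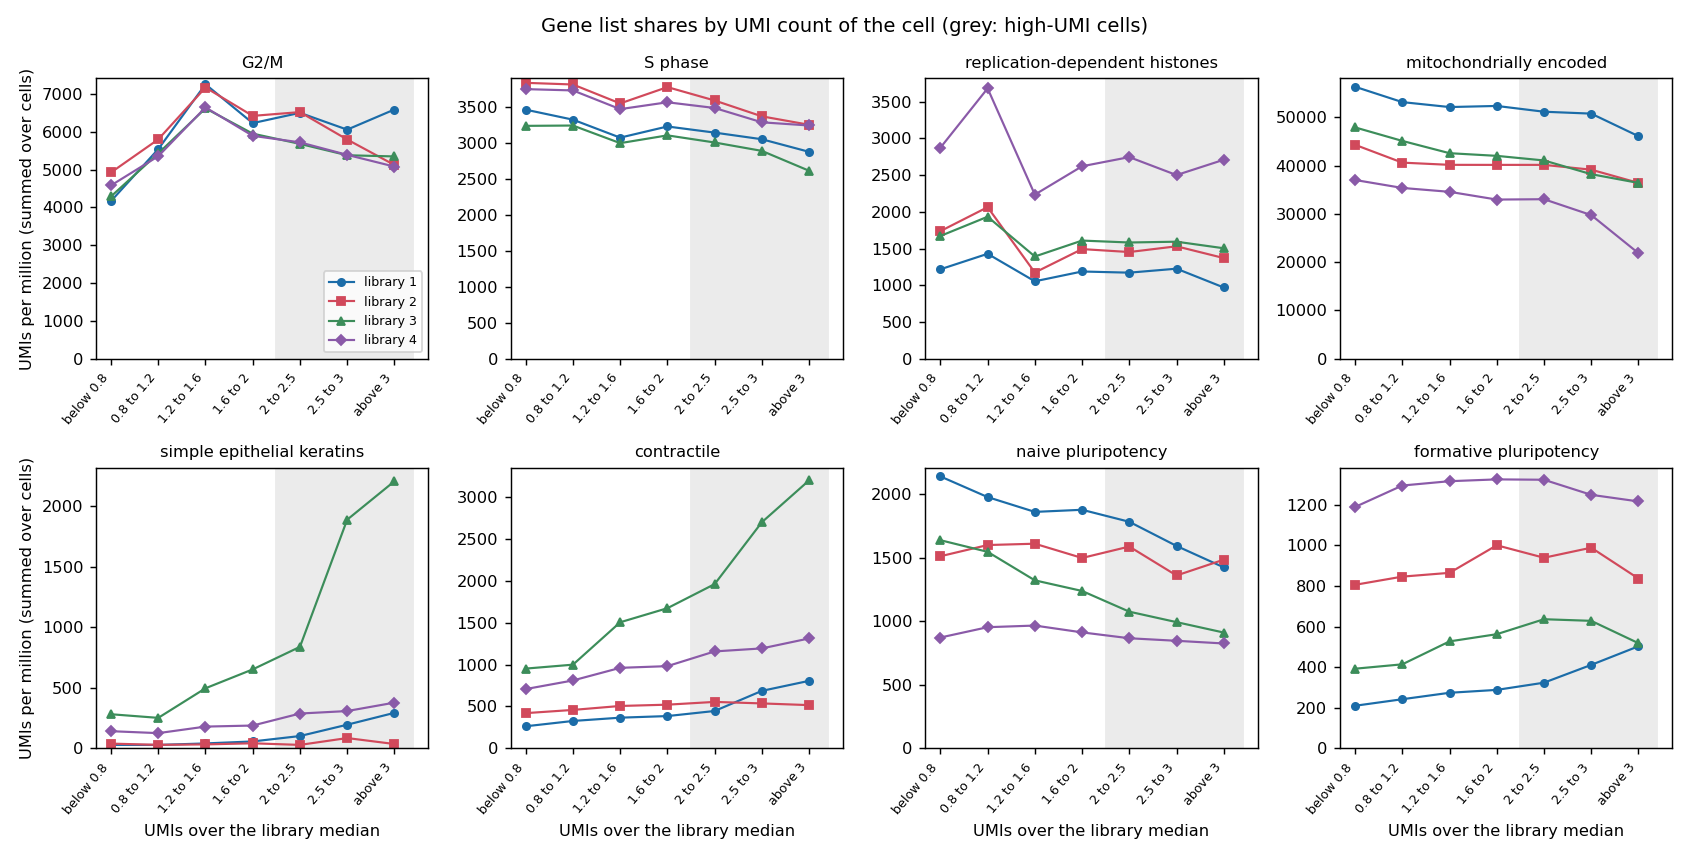
Each panel plots the summed share of 1 gene list, in CPM, against the UMI count of the cells over their library median, with 1 line per library and the high-UMI range in grey. The G2/M share is highest at 1.2 to 1.6 times the median in all 4 libraries, while the keratin share of library 3 climbs from 252 in reference cells to 2204 above 3 times.

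Replication-dependent histone transcripts were lower, and 6 of the 15 histone genes with enough counts passed the rule downwards, against 0.291% of all genes. The list of 67 genes made up 1173, 1469.9, 1577 and 2688 CPM in high-UMI and 1429, 2064, 1933 and 3680.2 in reference cells, folds of 0.821 (0.809 to 0.833), 0.712 (0.703 to 0.722), 0.816 (0.807 to 0.825) and 0.730 (0.723 to 0.738). Hist1h1b, a linker histone, was at 308, 256, 234 and 206 against 428, 454, 383 and 435, with log2 differences of -0.47 (-0.51 to -0.43), -0.83 (-0.88 to -0.78), -0.71 (-0.75 to -0.67) and -1.08 (-1.13 to -1.03). Hist1h2ae was at 59.1, 84.2, 71.3 and 152 against 87.3, 149, 125 and 300.1, and Hist1h4d differed by -0.80, -0.77, -0.91 and -1.06. Hist1h3c, Hist1h1c and Hist1h1a differed by -0.84 to -0.59, -0.77 to -0.43 and -0.68 to -0.37. The most abundant histone gene measured, Hist1h2ap, differed by -0.13, -0.32, -0.10 and -0.26 and did not pass. Of the 15 genes, 12 were below 1 in every library and 0 above, against 24.4 and 21.5% of all genes. The lower list share was not particular to high-UMI cells. It was 1054, 1174, 1392 and 2234 CPM at 1.2 to 1.6 times the median, against 1172, 1453, 1583 and 2745 at 2 to 2.5 times.

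Canonical histone mRNAs end in a stem-loop in place of a poly(A) tail, and the kit primes on poly(A), so the transcript models were searched for that element and for sequence beyond it. It was found as a 6-base stem around a 4-base loop in the GENCODE models of 12 of the 15 tested histone genes and of 5 of the 6 lower ones, counting the Hist1h1a model, which lacks the last base of the stem. The models of 4 lower genes continued past the stem-loop, by 840 bases in Hist1h1c, 770 in Hist1h4d, 151 in Hist1h2ae and 74 in Hist1h3c. The element is printed for these 4 genes with the paired stem in capitals, to show where these models continue past it. They lie on GRCm38 at chr13:23739507-23739532 and chr13:23581945-23581970 on the plus strand for Hist1h1c and Hist1h4d, and at chr13:23570663-23570688 and chr13:23745042-23745067 on the minus strand for Hist1h2ae and Hist1h3c, in single-exon genes.
Hist1h1c: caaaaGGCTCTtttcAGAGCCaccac
Hist1h4d: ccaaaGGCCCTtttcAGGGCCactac
Hist1h2ae: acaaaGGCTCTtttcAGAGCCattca
Hist1h3c: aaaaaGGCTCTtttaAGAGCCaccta
The stem-loop was also present in 7 tested histone genes that did not pass the rule. Their models continued past it too, by 3 bases in Hist1h2ap and up to 4884 in Hist1h1d. Neither the element nor the sequence beyond it sets the lower genes apart. The stem letters were the same in Hist1h1c, Hist1h2ae and Hist1h3c, and Hist1h4d carried another stem of equal length. With reference cells weighted to the S-high and G2/M-high mix of the high-UMI cells, 18 of the 24 lower genes passed the rule. Hist1h4d then differed by -0.85, -0.79, -0.92 and -1.08 and Hist1h1b by -0.38, -0.73, -0.64 and -1.02. The other 6, Hist1h1a, Mcm6, Wdr76, Slfn9, Fignl1 and Zfp459, no longer passed, with Hist1h1a at -0.27 and Mcm6 at -0.25 in library 1. Mcm6 is itself a member of the S phase list that set the weights.

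The gene whose smallest difference was furthest below 1 was Gm42418, a predicted gene named here after its values were seen, at chr17:39846958-39848788 on GRCm38, where RefSeq places a pseudogene of the small ribosomal RNA. It was at 346, 677, 277 and 608 CPM in high-UMI and 762, 1356, 693 and 1408 in reference cells, with log2 differences of -1.14 (-1.18 to -1.103), -1.001 (-1.03 to -0.97), -1.32 (-1.36 to -1.29) and -1.21 (-1.24 to -1.18). AY036118 lies inside Gm42418 on the opposite strand and was at 8.98, 57.0, 9.03 and 55.9 against 20.9, 97.3, 22.2 and 98.9. How reads of this overlapping pair were assigned was not tested. Counted per cell, Gm42418 gave 15.2, 35.0, 13.2 and 32.0 UMIs in high-UMI and 13.7, 29.2, 13.2 and 29.8 in reference cells, ratios of 1.11, 1.197, 1.00 and 1.07, although the mean total per cell was 2.40 to 2.51 times as high. The number of these transcripts per droplet thus rose far less than the total. Why it did not follow the total was not tested. Lars2, the mitochondrial leucyl-tRNA synthetase, was at 13.9, 19.4, 13.9 and 22.5 against 21.3, 31.3, 22.9 and 34.1 CPM.

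Malat1 made up most of the summed share of the nuclear RNA list, which was smaller in high-UMI cells of every library. The list of nuclear-retained and host RNAs made up 4848, 5169.5, 4876 and 5589 CPM in high-UMI and 5712, 5571, 5716 and 6789 in reference cells, folds of 0.849, 0.928, 0.853 and 0.823, with 5 of 10 members below 1 in every library, against 24.4% of all genes, and 0 past the rule. Malat1, a long RNA of nuclear speckles, was at 3395, 3559, 3468 and 3849.6 against 4222, 4001, 4216 and 4991, log2 differences of -0.31, -0.17, -0.28 and -0.37. Srrm2 itself was at 388, 536, 246 and 341 against 389, 530.1, 238 and 355, on both sides of 1. The speckle and splicing list had folds of 0.9203, 0.939, 0.909 and 0.913. Of its 16 members, 11 were below 1 in every library, against 24.4% of all genes, and 0 passed the rule.

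Mitochondrially encoded transcripts had folds of 0.954 (0.951 to 0.956), 0.977 (0.975 to 0.980), 0.879 (0.877 to 0.881) and 0.856 (0.853 to 0.858), at 5.07, 3.97, 3.96 and 3.03% of UMIs in high-UMI and 5.31, 4.06, 4.51 and 3.54% in reference cells. Of the 13 genes, 8 were below 1 in every library, against 24.4% of all genes, and 0 passed the rule. The share was lowest in the cells above 3 times the median of library 4, at 21862 CPM against 35370.4 in reference cells. The 79 nuclear genes of oxidative phosphorylation with enough counts had folds of 1.01, 1.02, 1.00 and 1.05, and glycolysis had 1.01, 1.04, 0.995 and 1.05, with 0 members past the rule in both lists.

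Ribosomal protein genes and translation factors took nearly equal shares of UMIs in both classes. Cytosolic ribosomal proteins held 30.2, 27.6, 28.3 and 29.3% of UMIs in high-UMI and 29.9, 26.7, 28.6 and 27.7% in reference cells, folds of 1.01 (1.01 to 1.01), 1.03 (1.03 to 1.04), 0.992 (0.991 to 0.993) and 1.06 (1.06 to 1.06). Translation factors had folds of 0.962, 0.993, 0.935 and 0.989. The nucleolar genes that assemble ribosomes had 10 of 20 members below 1 in every library and 4 above, against 24.4 and 21.5% of all genes, with folds of the sum of 0.952, 0.937, 0.880 and 0.904, and Npm1 and Ncl, abundant nucleolar proteins, differed by -0.27 to -0.09 and -0.25 to -0.08 on the log2 scale. The list of Myc, Mycn, Mycl, Max, Mxd1 and Mnt had folds of 0.894, 0.927, 0.914 and 0.958, and Mycn differed by -0.30 to -0.12. Cytosolic chaperones had folds of 0.959, 0.912, 0.909 and 0.892 and endoplasmic reticulum chaperones 0.959, 0.899, 0.992 and 0.887. In these 6 lists, 0 genes passed the rule, against 0.352% of all genes upwards and 0.291% downwards. Of 83 tested ribosomal protein genes, 38 were above 1 in every library and 16 below, against 21.5 and 24.4% of all genes. Among 13 cytosolic chaperones 1 was above and 9 below, and among 12 endoplasmic reticulum chaperones 1 and 4. Among 14 translation factors 5 were above and 5 below, and among 4 tested genes of the Myc list 0 and 2.

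**Figure D4:**
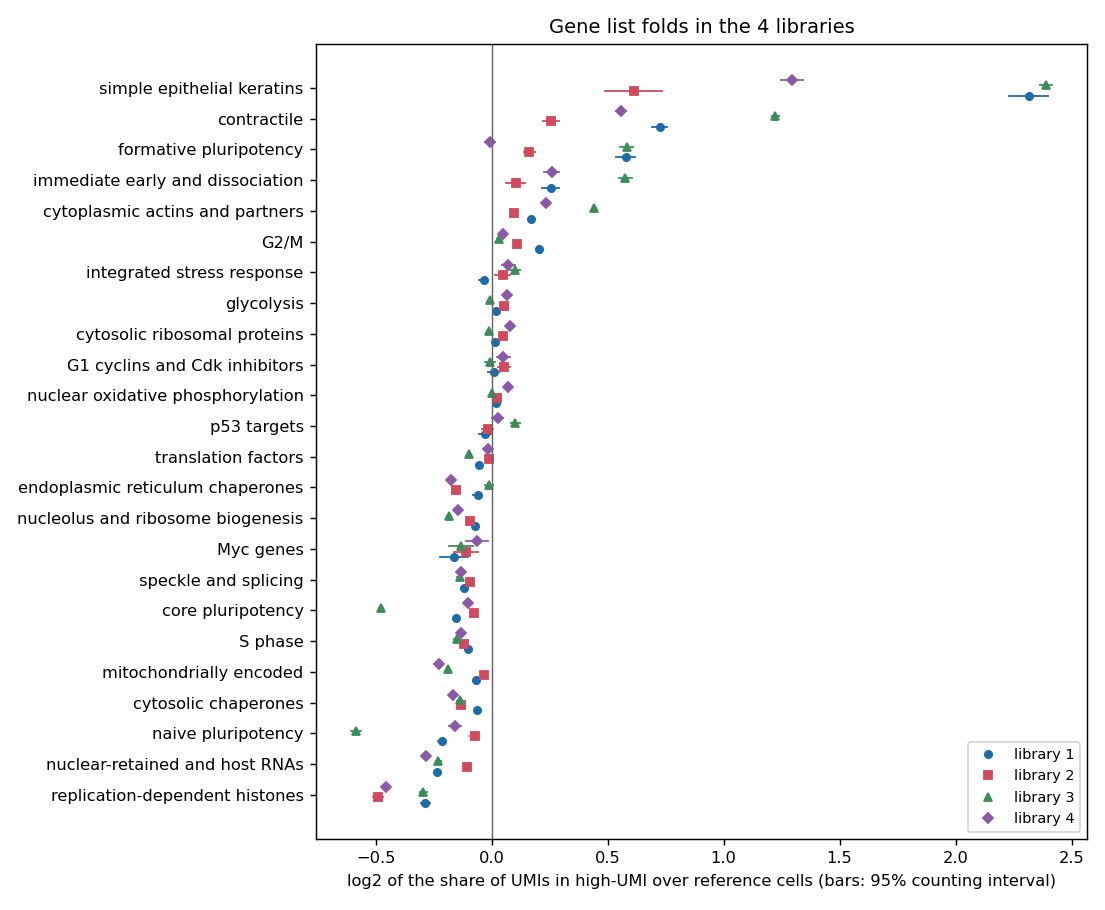
The x axis gives the log2 of the summed share of UMIs of each gene list in high-UMI over reference cells, with 1 point per library and 95% counting intervals as bars. Lists with at least 20 CPM in the reference cells of every library are shown, except the Y-linked list, which was left out. Keratin and contractile lists lie above 0 in all 4 libraries, and histone, nuclear RNA and naive lists below 0.

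Of the stress lists, the immediate early list alone had a fold above 1 in every library. The p53 targets had folds of 0.980, 0.989, 1.07 and 1.02 and the genes of the integrated stress response 0.976, 1.03, 1.07 and 1.05, each with 0 members past the rule. Genes of the immediate early response and of cell dissociation had folds of 1.19, 1.07, 1.49 and 1.198, with 4 of 6 members above 1 in every library, against 21.5% of all genes, and 0 past the rule. Dnajb9, a co-chaperone of the endoplasmic reticulum, was among the 24 lower genes, at 8.47, 7.15, 6.02 and 6.85 against 11.0, 10.1, 10.4 and 9.38 CPM. Apoe, the lipid carrier apolipoprotein E, was lower at 1010.0, 381, 644 and 241 against 1370.3, 495, 1085 and 313. Wdr76, Slfn9 and Vps26a, a subunit of the retromer coat, completed the leading lower genes with log2 differences of -0.55 to -0.38, -1.26 to -0.47 and -0.54 to -0.40.

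Markers of other cell types stayed low in both classes. Markers of the 2-cell-like state were at 0.131 to 0.990 CPM in high-UMI and 0.346 to 1.70 in reference cells, and primitive endoderm markers at 1.47 to 6.18 and 1.42 to 4.49. Streak markers were at 4.06, 4.92, 8.04 and 5.63 against 3.56, 4.31, 3.35 and 5.28, a fold of 2.40 (1.98 to 2.91) in library 3. Trophectoderm markers were at 5.88, 4.86, 13.9 and 11.4 against 4.04, 5.28, 5.37 and 6.67, a fold of 2.59 (2.23 to 3.01) in library 3, and fibroblast markers at 1.98, 6.89, 11.2 and 7.41 against 2.42, 4.86, 10.9 and 6.73. No member of these 5 lists had enough counts for the rule in every library. Of the pluripotent markers, Pou5f1 and Sox2 did not go under 224 CPM in either class. Nanog, Zfp42 and Sox2 were lower in high-UMI cells of every library, as given above. A sum over a class does not give the identity of single cells.

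Y-linked genes, which mark the male line, were measured at equal depth. Cells with no UMI of the 4 Y-linked genes made up 18.9, 22.7, 65.1 and 72.1% of high-UMI and 19.0, 25.4, 72.0 and 74.9% of reference cells in libraries 1 to 4. The libraries thus differed far more than the classes did. Eif2s3y, a translation initiation factor, differed by -0.29 to -0.17 on the log2 scale and Ddx3y, an RNA helicase, by 0.05 to 0.11, while Uty and Kdm5d had too few counts. Over autosomes and the X chromosome, the share of UMIs in high-UMI over reference cells ran from 0.948 to 1.05.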

How the data were processed

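WT and Srrm2 hKO cells were profiled by droplet single-cell RNA-seq, in 4 samples. Per the file headers and the study's methods, the authors mapped the reads to mm10 and counted UMIs with Cell Ranger 6.1.2, and joined the libraries with its aggregation step, which equalises sequencing depth between libraries and can lower the counts of the deeper ones. The deposited values are whole UMI counts after that step for 32285 genes and 41142 barcodes, before the study's own filter on cells. Barcodes were kept when UMIs and detected genes were each at least the mean minus 1 SD of their library and the mt- share was at most 10%. Counts were summed per library over high-UMI and over reference cells, and a gene passed when its share of UMIs was at least 25% higher, or at least 20% lower (the same ratio inverted), in every library, with 500 or more counts in each. Folds carry exact conditional 95% Poisson intervals and shares exact binomial ones; both cover counting error only, and PCR, capture and culture are outside them. Cells are not replicates and the libraries are not tied to labels, so no test was run. Per-cell readouts used 14000 UMIs drawn without replacement. The calls were checked on simulated sums with counting error only and known changes larger than the fold limit. That check does not cover the spread between cells or changes near the limit. Genes named in the text are members of the lists, the 12 higher and 12 lower genes with the largest smallest difference (predicted genes counted only), and Srrm2, Malat1, Pou5f1, Nanog and the Y-linked genes; Gm42418, Plekhg2, Plec, Ccn2, Cldn7, Dusp9, Fignl1 and Zfp459 were added after their values were seen. The members, lists and rules were chosen with earlier results of these data known. Doublets were not called or removed. Gene positions come from GENCODE vM21 (GRCm38), whose identifiers matched 32235 of 32285 genes and all 8247 tested, and promoters from RefSeq. Alternatives covered the UMI limit, the reference range, cell filters, count minimum, fold, scaling, keratin-high cells, cell cycle mix and single libraries. Python 3.11.15, numpy 2.4.6, scipy 1.17.1, pandas 2.3.3 and matplotlib 3.10.9 were used.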

Additional observations from a re-analysis of the deposited data

How the results depend on the processing

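No paired test was run, and no result comes from a test. The 2 classes were compared within each library, but a test across the libraries was left out by choice, since the cells had been chosen by their own counts and the libraries are not tied to the labelled samples. The number of high-UMI cells followed the limit by construction, with 4524 cells at 1.5 times and 520 at 2.5 times the median, and 2468 when the median was taken over all barcodes. The counts of genes depended on every threshold. With a count minimum of 100, 2000 or 20, 116, 6 or 227 genes were higher and 54, 11 or 117 lower. At 1.5-fold 3 were higher and 5 lower, and at 1.1-fold, an alternative chosen after seeing the data, 355 and 385. With the UMI limit at 1.5 times the median 18 genes were higher and 10 lower, 10 and 8 of them shared with those reported, and at 2.5 times 66 and 124, with 16 and 22 shared. Without keratin-high cells 13 genes were higher, 12 of them shared. Against all other kept cells 22 were higher and 23 lower, but only 11 and 17 of them were shared. Without the cells above 3 times the median 29 were higher and 16 lower, 26 and 16 of them shared. Leaving out 1 library gave 30 to 109 higher genes and 27 to 59 lower genes, the most without library 2 (109 and 59), against 52 and 39 without library 1 and 41 and 40 without library 4, where fewer libraries had to pass. As the median over the libraries, the G2/M fold of 1.06 became 1.01 against all other kept cells, 1.01 with reference cells weighted to the cell cycle mix, and reversed to 0.985 at a limit of 2.5 times. The S phase fold of 0.916 became 0.946 at 1.5 times, 0.877 at 2.5 times, 0.934 against all other kept cells and 0.977 with the weighted mix. The weights were built from the S phase and G2/M counts themselves, so a shift of both folds towards 1 with the weighted mix follows from how it was made. The cause of the other shifts was not tested. Leaving out cells with a shared barcode, added after seeing the data, left 29 higher and 25 lower genes. The keratin fold of 3.71 became 1.78 without keratin-high cells, 5.12 at 2.5 times, 2.55 at 1.5 times, and 2.45 without library 1 or 3, staying above 1. Without keratin-high cells 21 genes were lower, and 18 of the lower genes were kept with the weighted mix. The median folds of the ribosomal, mitochondrial, naive and formative lists stayed within the range of their 4 libraries under all alternatives run, which leaving out 1 library ensures by construction. Folds of single libraries did not: at 2.5 times they reached 1.11, 0.734, 0.628 and 1.78 for these lists. Genes at few counts, such as Uty, Kdm5d and the lineage markers, are limited by depth.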
